A study of Mus musculus with 14 samples.

Results

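This set of 8 genes of sugar metabolism was followed: *Gckr*, *Pfkfb1* and *Gpi1* of glucose use, *Khk* and *Tkfc* of fructose breakdown, and *G6pdx*, *Pgd* and *Tkt* of the pentose phosphate pathway. They were picked by symbol from the gene count tables of mouse liver and kidney. All 8 were among the 19660 genes of the liver table, and 7 were among the 20203 genes of the kidney table, which does not list *Gckr*. Each of them passed the filter on low counts wherever it was listed, which left 15130 genes tested in liver and 15847 in kidney.

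The RNA came from adult male mice of 12 weeks that carried a human angiotensinogen transgene of the Hap -6A genotype, and it was sequenced after a Normal Diet or after high salt. Every group carried the transgene, so the diets were compared within transgenic animals only. There were 4 liver libraries and 3 kidney libraries for each diet. The strain, the salt dose, the length of feeding and the promoter that drives the transgene are not given in the sources used here, and no source says whether libraries of a group came from separate animals, so p-values measure the spread between these libraries, which may be technical.

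Liver takes up much of the sugar of a meal and turns it into glycogen, energy and fat. Glucose is phosphorylated and enters glycolysis, fructose enters lower down through its own kinases, and part of the glucose phosphate is diverted into the pentose phosphate pathway, whose oxidative branch gives the NADPH used for lipid synthesis and whose other branch gives and recycles ribose phosphate. Kidney proximal tubule also takes up fructose and uses both routes.

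Libraries are named by the numbers of their titles. The high salt liver libraries carry numbers that match no title and are called HS5, HS6, HS7 and HS8. Library totals ran from 37267800 to 51487400 counts in liver and from 16046100 to 22004900 in kidney, rounded. Mitochondrial genes took 2.30% and 2.06% of the counts in normal diet liver libraries 1 and 2, and between 11.3% and 29.6% in the other 6. HS5 and HS6 were the most alike pair, with a chi-square per gene of 1.59, where the other 11 liver pairs of one diet gave 9.83 to 62.8. No source says whether these libraries came from 1 animal or from separate animals, so n = 4 on high salt is in doubt, and results are also given with both summed into 1 library. Hepatocyte markers, 5 of 5 in the table, summed to 49169 to 76839 counts per 1000000 counts of a library (CPM) under the normal diet and 87460 to 105744 under high salt. The diets did not overlap in that sum. Most of it was *Alb*, at a mean of 43963 and 74599 CPM, while 3 of the 5 had a lower mean on high salt: *Cyp2e1* at 0.546-fold, with no overlap, *Cps1* at 0.884-fold and *Apoa1* at 0.898-fold. None of the 5 passed the adjusted threshold, and fewer cells of a type and less RNA per cell cannot be told apart in bulk tissue. Red cell markers, also 5 of 5, summed to 725 to 1937 CPM under the normal diet and 271 to 720 under high salt. Immune cell markers, 12 of 12, summed to 117 to 244 and 75.9 to 141 CPM. Kidney proximal tubule markers were low in liver, at 0.476 to 5.70 CPM under the normal diet and 2.81 to 46.6 under high salt, with the highest sum in HS7, which also held the highest red cell sum of the high salt libraries. Of 5 other kidney markers 3 were in the liver table, at sums of 0.0713 to 0.503 and 0.142 to 2.45 CPM, and of 5 adipocyte markers 1, at 0 to 0.163 and 0.0888 to 3.99 CPM. In kidney the hepatocyte markers summed to 825 to 1296 CPM under the normal diet and 1422 to 1625 under high salt. Nearly all of this was *Cyp2e1*, which kidney also expresses, with means of 963 and 1423 CPM, while *Alb* had means of 16.5 and 6.58 CPM and *Apoa1* of 1.27 and 0.476 CPM. Kidney immune markers, 11 of 12, to 34.6 to 177 and 57.9 to 93.0 CPM. The part of these differences in the results below was not tested.

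Start site sequence was available for all 8 genes in 12 windows of 300 bases, from the RefSeq table of GRCm38.p6. Each held 250 bases before the first transcribed base given by RefSeq and 50 after its start. Only the window of *Gpi1* had that base at the GENCODE gene start, on which the gene positions below rest. The short motifs below were searched on both strands. CACGTG is 1 form of the E-box, the only form searched, and it is called the E-box below. Carbohydrate response elements are built around such letters, and whole elements were not searched for. CCAAT is the CCAAT box, and GGGCGG is the GC box. None of the motifs contains another, and neighbouring GC boxes in *Tkt* overlap by 1 base. The E-box was found in 1 of the 12 windows, that of *Khk*, starting 71 bases before the first base given by RefSeq. It was present in 7.15% of all 32851 windows of that length. The CCAAT box was found in 5 of the 12 windows, of 4 genes, and in 37.4% of all windows. The GC box was found in 6 of the 12, each of another gene, and in 35.7% of all windows. Stretches of 30 bases are shown for *Khk*, which holds the E-box, and for the 5 genes with the largest liver differences, 5′ to 3′ on the gene's strand with the motifs in capitals (CCGCCC is the GC box read on the other strand).
Khk, chr5:30921476-30921505, plus strand: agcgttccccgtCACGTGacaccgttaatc
Tkfc, chr19:10604307-10604336, minus strand: ggcatgacattgCCAATcggctgcccatac
Gpi1, chr7:34230333-34230362, minus strand: gtgGGGCGGggccggaggcgGGGCGGggtc
Tkt, chr14:30549102-30549131, plus strand: cgccCCGCCCcacctCCGCCCCGCCCccca
Pgd, chr4:149166734-149166763, minus strand: cgccgcagagacCCAATagcgtggggcatc
G6pdx, chrX:74429013-74429042, minus strand: gggaaggccaaaGGGCGGggctggccaggg
A match describes the letters of the window and is not a measured binding site. By the GENCODE positions, the stretches of *Khk*, *Tkt*, *Pgd* and *G6pdx* overlap exons of the same gene. That of *Gpi1* does so at its edge, and that of *Tkfc* lies inside its gene. The stretches are thus not all sequence upstream of transcription. Whether these motifs have a part in the diet differences below was not tested.

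In liver, 2 of the 8 genes, *Tkfc* and *Gpi1*, were higher on high salt at an adjusted p under 0.05 and none was lower. Of all 15130 genes tested, 1% were called, and 0.595% were called higher. Of the 8 genes, 5 had an unadjusted p under 0.05, all of them higher, against 21.2% of all genes in either direction and 9.83% higher. In 4 of the 8, *Gpi1*, *Tkfc*, *Pgd* and *Tkt*, the diets did not overlap, against 12.5% of all genes, 6.44% with high salt above. The median log2 fold change was 0.82 over the 8 and -0.023 over all genes tested. The 8 genes were chosen with earlier results of these data known. Their shares and medians beside those of all genes, here and in kidney, are therefore not a test of the set. Differences are given as high salt over normal diet, with p-values from edgeR's quasi-likelihood test adjusted over all genes by Benjamini-Hochberg.

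**Figure D1:**
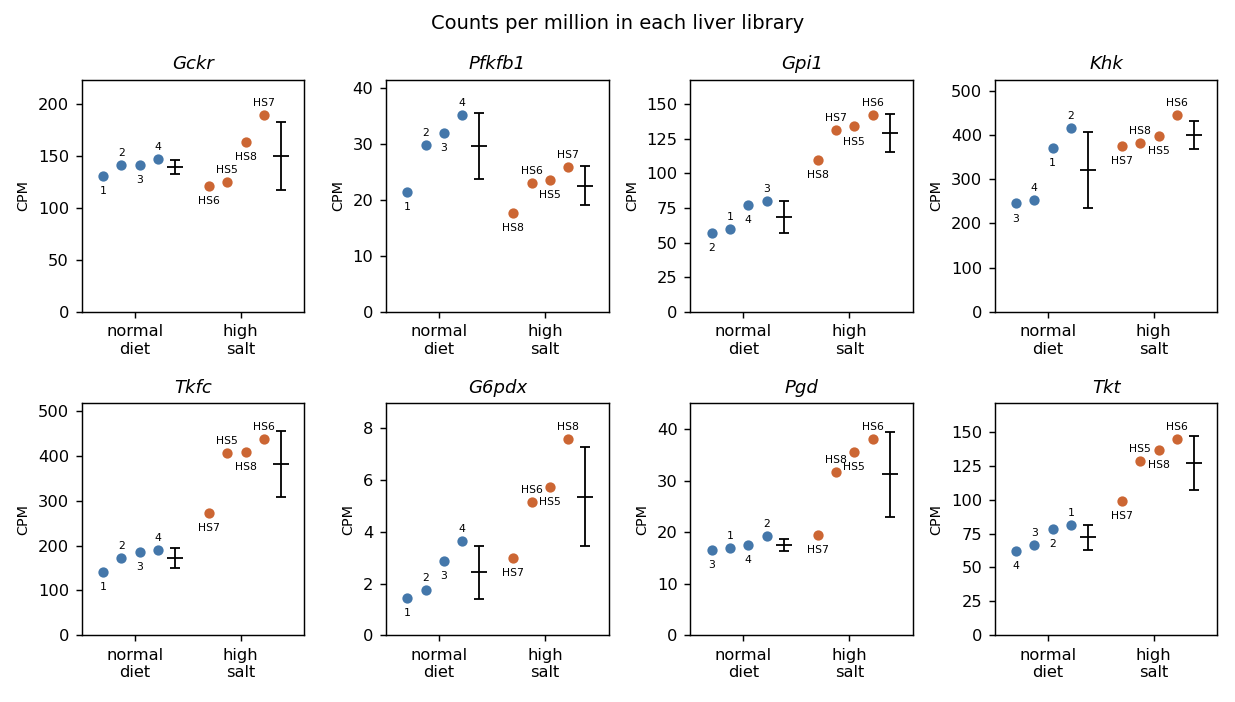
Counts per 1000000 (CPM, y axis from 0) of the 8 genes in each liver library, by diet; points are libraries, labelled by name, and bars are the mean and SD of 4 libraries. For *Gpi1*, *Tkfc*, *Pgd* and *Tkt* every high salt point lies above every normal diet point, and HS7 is the lowest high salt point for *Tkfc*, *G6pdx*, *Pgd* and *Tkt*.

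*Gckr*, on chromosome 5 at 31297443 to 31327314 (GRCm38, plus strand), encodes a regulatory protein of the hepatocyte nucleus that restrains the use of glucose. Its level in normal diet liver libraries 1 to 4 was 130, 141, 141 and 147 CPM, and in HS5 to HS8 it was 125, 121, 189 and 164 CPM. The normal diet libraries lay close together inside the wider range of the high salt libraries. The means were 139.8 ± 6.74 (SD, n = 4) and 149.9 ± 32.5 CPM (SD, n = 4), which gave a log2 fold change of 0.10 (SE 0.18, adjusted p = 0.766). Without HS7 the log2 fold change was -0.043.

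*Pfkfb1*, on chromosome X at 150588229 to 150643878 (plus strand), encodes the liver form of the enzyme that makes and removes the sugar bisphosphate that activates phosphofructokinase. It was the only gene of the 8 with a negative difference. Normal diet libraries 1 to 4 had 21.5, 29.9, 32.1 and 35.2 CPM, and HS5 to HS8 had 23.6, 23.1, 25.9 and 17.6 CPM. Normal diet libraries 2, 3 and 4 lay above all high salt libraries, while normal diet library 1 lay among them. The mean was 29.7 ± 5.86 against 22.6 ± 3.53 CPM (SD, n = 4 each), which gave a log2 fold change of -0.40 (SE 0.19, adjusted p = 0.257) that did not pass.

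*Gpi1*, on chromosome 7 at 34201330 to 34230336 (minus strand), encodes the isomerase that turns glucose phosphate into fructose phosphate, at the point where the pentose phosphate pathway leaves glycolysis and returns to it. Its level was 60.1, 56.7, 80.2 and 76.9 CPM in normal diet libraries 1 to 4 and 134, 142, 131 and 109 CPM in HS5 to HS8. The lowest high salt library, HS8, stood above the highest normal diet library. The mean rose from 68.5 ± 11.8 to 129 ± 13.9 CPM (SD, n = 4 each), 1.89-fold (log2 fold change 0.92, SE 0.17, adjusted p = 0.0433).

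*Khk*, on chromosome 5 at 30921431 to 30931248 (plus strand), encodes ketohexokinase, which phosphorylates fructose in its first step of breakdown. Normal diet libraries 1 to 4 had 370, 416, 245 and 253 CPM, and HS5 to HS8 had 397, 445, 375 and 382 CPM. Normal diet libraries 3 and 4 lay below every high salt library, and libraries 1 and 2, those with the low mitochondrial share, lay at the high salt level or close to it. The means were 321 ± 85.3 and 399.5 ± 31.4 CPM (SD, n = 4 each), with a log2 fold change of 0.32 (SE 0.21, adjusted p = 0.403). Without normal diet libraries 1 and 2 it was 0.68 (adjusted p = 0.121).

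*Tkfc*, on chromosome 19 at 10587791 to 10605654 (minus strand), encodes triokinase, which phosphorylates the glyceraldehyde released from fructose. Its level was 141, 172, 185 and 190 CPM in normal diet libraries 1 to 4 and 405, 437, 273 and 408 CPM in HS5 to HS8. All 4 high salt libraries stood above all normal diet libraries, and HS7 was the lowest of them. The mean rose from 172 ± 21.8 to 381 ± 73.2 CPM (SD, n = 4 each), 2.21-fold (log2 fold change 1.15, SE 0.19, adjusted p = 0.0364).

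The 3 pentose phosphate genes all had positive differences, and none passed the adjusted threshold. *G6pdx*, on chromosome X at 74409483 to 74429194 (minus strand), encodes glucose phosphate dehydrogenase, the first and controlling step of the oxidative branch. It was the lowest of the 8 in liver, with 1.45, 1.74, 2.86 and 3.65 CPM in normal diet libraries 1 to 4 and 5.72, 5.14, 2.97 and 7.58 CPM in HS5 to HS8. HS7 lay below normal diet library 4, so the diets overlapped by that pair. The means were 2.43 ± 1.02 and 5.35 ± 1.90 CPM (SD, n = 4 each), with a log2 fold change of 1.14 close to that of *Tkfc* but a larger SE, 0.36 (adjusted p = 0.137).

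*Pgd*, on chromosome 4 at 149149991 to 149166771 (minus strand), encodes phosphogluconate dehydrogenase, the next NADPH-yielding step. It had 16.9, 19.3, 16.6 and 17.5 CPM in normal diet libraries 1 to 4 and 35.5, 38.1, 19.5 and 31.7 CPM in HS5 to HS8. The normal diet libraries were tightly grouped, and HS7 lay just above their highest value. The mean was 17.6 ± 1.19 against 31.2 ± 8.23 CPM (SD, n = 4 each), which gave a log2 fold change of 0.83 (SE 0.20, adjusted p = 0.0829). Without HS7 it was 0.99 and passed (adjusted p = 0.0294). Without HS5 it was 0.76 (adjusted p = 0.259), without HS6 0.72 (adjusted p = 0.271), and with both summed 0.74 (adjusted p = 0.268).

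*Tkt*, on chromosome 14 at 30548359 to 30574720 (plus strand), encodes transketolase, which passes carbon units between sugar phosphates in the branch that links pentoses back to glycolysis. It had 81.6, 78.3, 66.5 and 62.5 CPM in normal diet libraries 1 to 4 and 128, 145, 98.7 and 136 CPM in HS5 to HS8. No high salt library fell into the normal diet range. The mean was 72.2 ± 9.20 against 127 ± 20.03 CPM (SD, n = 4 each), which gave a log2 fold change of 0.81 (SE 0.17, adjusted p = 0.0592). Without HS7 it was 0.90 and passed (adjusted p = 0.0457). Without HS5 it was 0.81 (adjusted p = 0.206), without HS6 0.74 (adjusted p = 0.225), and with both summed 0.77 (adjusted p = 0.213).

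The liver calls changed when single libraries were left out. *Tkfc* and *Gpi1* both missed the threshold without normal diet library 1 or 2 and without HS5, HS6 or HS8, and without HS7 *Tkfc* passed and *Gpi1* did not (adjusted p = 0.0565). Over the libraries left out in turn, the log2 fold change of *Tkfc* ran from 1.05 to 1.27 and that of *Gpi1* from 0.83 to 0.99, and over all alternatives the adjusted p ran from 4.7e-06 to 0.158 for *Tkfc* and from 4.3e-05 to 0.182 for *Gpi1*. With HS5 and HS6 summed, which leaves 3 high salt libraries, none of the 8 passed: *Tkfc* had a log2 fold change of 1.09 (adjusted p = 0.151) and *Gpi1* 0.88 (adjusted p = 0.174). Without normal diet libraries 1 and 2 these were 1.02 (adjusted p = 0.102) and 0.72 (adjusted p = 0.107). DESeq2 called 5 of the 8, *Gpi1*, *Tkfc*, *G6pdx*, *Pgd* and *Tkt*, and it called 6.72% of the 16140 genes to which it gave an adjusted p. The sign of the difference held for 7 of the 8 genes in each of the 19 alternatives, and *Gckr* was the exception.

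**Figure D2:**
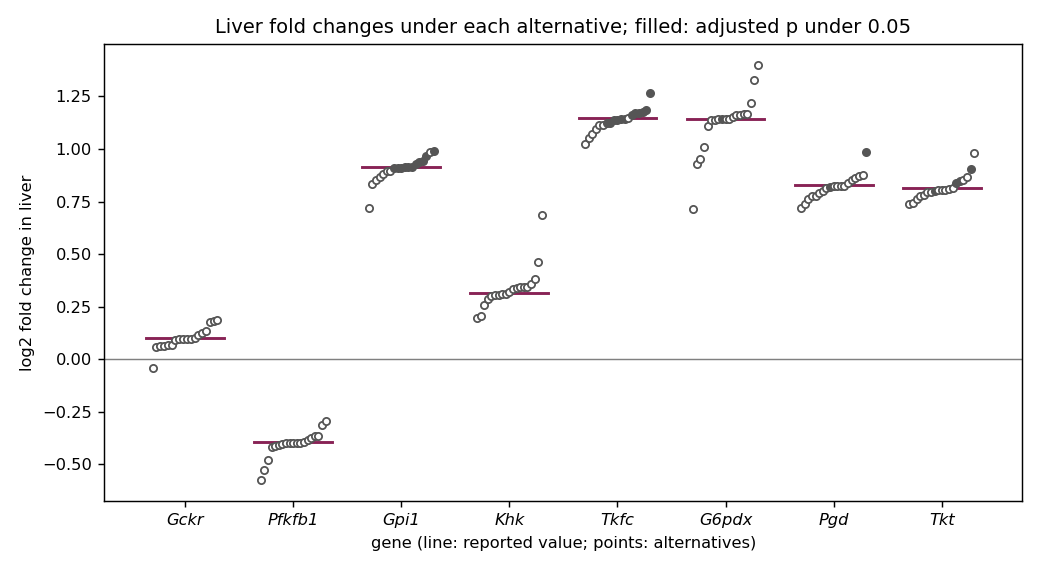
Log2 fold change in liver, high salt over normal diet (y axis), of the 8 genes under each of the alternative settings (points, filled where the adjusted p is under 0.05) beside the reported value (line). *Tkfc* ran from 1.02 to 1.27 and passed in 12 of 19, *Gpi1* ran from 0.72 to 0.99 and passed in 11 of 19, and *Tkt* and *Pgd* passed in 4 and 2.

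The genes *G6pdx*, *Tkfc* and *Pfkfb1* share exon bases with genes on the opposite strand that are in the table, and whether the counting used strand is not stated, so reads from such a pair cannot be told apart there. *G6pdx* shares 418 bases, 13.6% of its exon length, with *Ikbkg*, a subunit of the kinase that activates NF-kappa B. *Tkfc* shares 596 bases, 12.9%, with *Cyb561a3* and 328 bases, 7.10%, with *Ddb1*, and *Pfkfb1* shares 123 bases with *Apex2*. None of these neighbours passed for diet in liver. Their log2 fold changes were -0.061 for *Ikbkg*, -0.26 for *Cyb561a3*, -0.11 for *Ddb1* and -0.089 for *Apex2*. In normal diet liver *Ikbkg* had a mean of 59.0 CPM, beside 2.43 for *G6pdx*. *Ddb1* had 178 and *Cyb561a3* 14.3, beside 172 for *Tkfc*, and *Apex2* had 7.47, beside 29.7 for *Pfkfb1*. The part of reads from these neighbours in the counts of the 3 genes was not tested. *Gpi1* shares 741 bases, 11.5% of its exon length, with the noncoding gene *Gm26762* on the opposite strand. *Gm26762* is not listed in the tables, so its level is not known, and its part in the counts of *Gpi1* was not tested. Near-identical copies make a further limit: *G6pd2* matches *G6pdx* at 93.2% over 2332 bases and had 10 counts in all liver libraries together, and the pseudogene *Gm1840* matches *Gpi1* at 98.7% over 1046 bases and is not listed in the tables.

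In kidney, none of the 7 genes listed passed for diet, and none of the 15847 genes tested did (0%). At an unadjusted p under 0.05 there were 0 of the 7 and 318 genes in all, 2.01%. Without normal diet library 1 the latter count was 2627 of 16146 genes, and still none passed the adjusted threshold. DESeq2 called 0 of the 7 and 13 genes in all, 0.0644%. In none of the 7 were the diets free of overlap, against 6.92% of all genes, 3.85% with high salt above. Of the 7 genes, 6 had a positive difference, with a median log2 fold change of 0.21 beside -0.025 over all genes. The largest was that of *Pgd*.

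**Figure D3:**
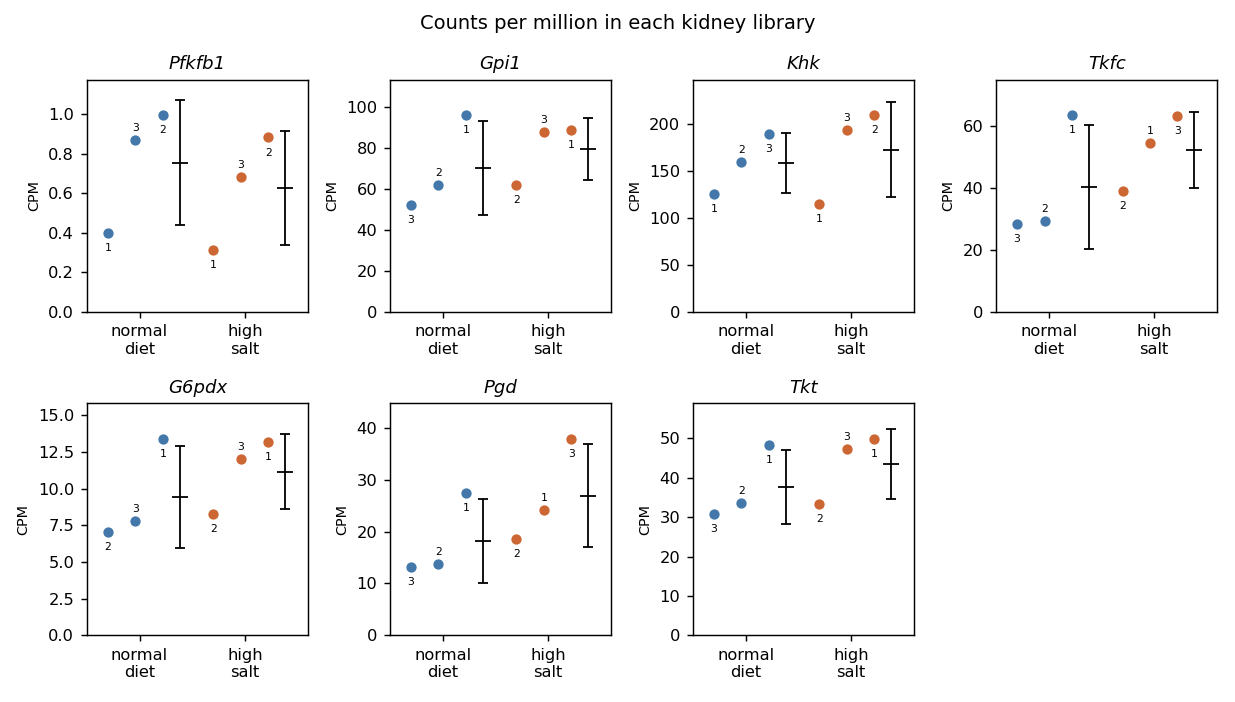
Counts per 1000000 (CPM, y axis from 0) of the 7 genes listed in kidney, in each library by diet; points are libraries, labelled by number, and bars are the mean and SD of 3 libraries. The diets overlap for every gene, and normal diet 1, high salt 1 and high salt 3 are the highest points for *Gpi1*, *Tkfc*, *G6pdx*, *Pgd* and *Tkt*.

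*Gpi1* had 96.2, 62.0 and 52.4 CPM in normal diet kidney libraries 1 to 3 and 89.1, 62.2 and 87.8 CPM in high salt libraries 1 to 3 (log2 fold change 0.18, SE 0.28, adjusted p = 0.9996). The high values came from both diets: normal diet 1, high salt 1 and high salt 3. *Tkfc* had 63.5, 29.4 and 28.4 CPM and then 54.4, 38.9 and 63.1 CPM, with the same 3 libraries high (0.37, SE 0.35). *G6pdx* had 13.4, 7.03 and 7.79 CPM against 13.2, 8.26 and 12.0 CPM (0.25, SE 0.31). *Pgd* had 27.5, 13.8 and 13.2 CPM against 24.2, 18.6 and 37.9 CPM (0.57, SE 0.36). *Tkt* had 48.2, 33.6 and 30.8 CPM against 49.8, 33.3 and 47.3 CPM (0.21, SE 0.25).

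These 5 genes thus had their 3 highest values in the same libraries, which come from both diets, in an order that differed by gene. Those libraries held the 3 highest values in 3243 of the 15847 genes tested, 20.5%. The proximal tubule markers, 7 of 7 in the table, also set those 3 libraries apart. *Kap*, by far the most abundant, was lower there, at 19940 CPM in normal diet 1, 28501 in high salt 1 and 36328 in high salt 3, than in the other 3, at 53463 to 55674. The other 6 markers together were higher there, at 3711, 3257 and 3184 CPM, than in the other 3, at 2125 to 2547. Kidney markers beyond the proximal tubule were also higher there, at 2842, 2253 and 2268 CPM, than in the other 3, at 1776 to 2039. Red cell markers were lower there, at 350, 762 and 731 CPM, than in the other 3, at 1197 to 1551. Immune, hepatocyte and adipocyte marker sums did not divide the libraries in this way. The part of these differences in the values of the 5 genes was not tested. Without normal diet library 1 the log2 fold changes were 1.00 for *Pgd*, 0.85 for *Tkfc*, 0.59 for *G6pdx*, 0.48 for *Gpi1* and 0.44 for *Tkt*, with adjusted p from 0.204 to 0.329 and each larger than with all 6 libraries. Leaving out other libraries also gave smaller values, as low as 0.0097 for *Gpi1* without normal diet 3, 0.24 for *Pgd* without high salt 3, 0.17 for *Tkfc* and 0.087 for *Tkt* without normal diet 3, and 0.076 for *G6pdx* without normal diet 2.

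*Khk* did not share this pattern. It had 125.6, 159 and 189 CPM in normal diet kidney libraries 1 to 3 and 115, 209 and 193 CPM in high salt libraries 1 to 3. Library 1 of each diet was lowest. Its log2 fold change was 0.13 (SE 0.28, adjusted p = 0.9996), and it was -0.014 without normal diet library 1 and -0.036 without high salt library 2. *Pfkfb1* was close to the lower end of what was counted, with 0.400, 0.996 and 0.871 CPM in the normal diet libraries and 0.313, 0.882 and 0.682 CPM in the high salt libraries, from 7 to 18 counts a library. The log2 fold change of *Pfkfb1* was -0.29 (SE 0.55, adjusted p = 0.9996), an imprecise value at so few counts. *Gckr* is absent from the kidney count table, and in the authors' normalized kidney table it is listed at 0 in 3 of the 6 libraries and at 2.28 to 4.82 in the others.

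The diet difference of each gene was compared between the tissues in 1 fit of all 14 libraries. None of the 7 genes had an interaction of tissue and diet at an adjusted p under 0.05, and neither did any of the 16633 genes tested (0%). DESeq2 called 0 of the 7 and 142 genes, 0.841%, and edgeR called 0 of the 7 and 7 genes without HS7. At an unadjusted p under 0.05 there was 1 of the 7, *Gpi1*, against 10.1% of all genes. The log2 difference of *Gpi1* was 0.75 larger in liver (SE 0.32, adjusted p = 0.462). It was 0.92 larger for *G6pdx* (SE 0.50, adjusted p = 0.544), 0.79 for *Tkfc* (SE 0.41, adjusted p = 0.530) and 0.60 for *Tkt* (SE 0.32, adjusted p = 0.533). For *Pgd*, *Khk* and *Pfkfb1* it was 0.27, 0.18 and -0.086, and each of these changed sign when a single library was left out. The diet differences of the tissues were thus not shown to differ.

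**Figure D4:**
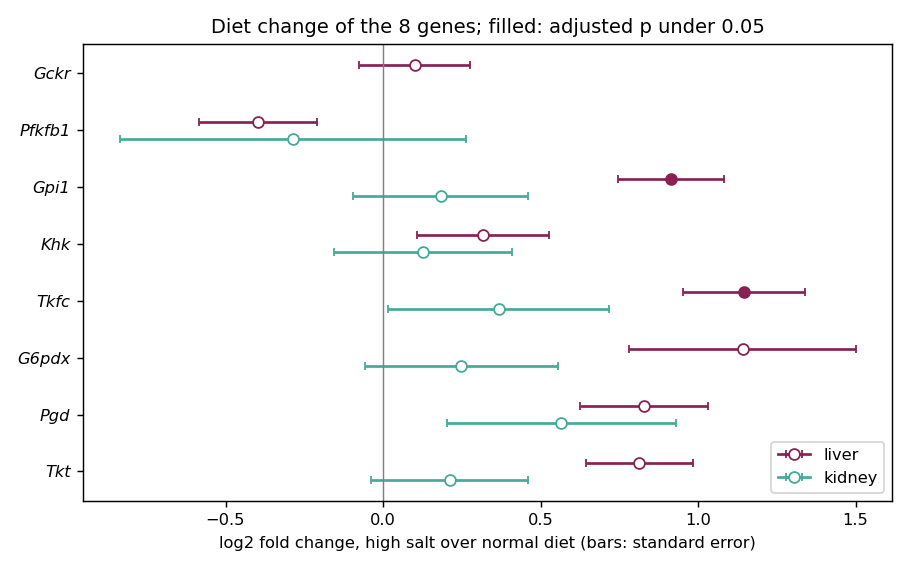
Log2 fold change, high salt over normal diet (x axis), of each gene in liver and in kidney, with bars of 1 standard error; filled points have an adjusted p under 0.05. *Gpi1* and *Tkfc* in liver are the filled points, every kidney point is open, and *Gckr* has a liver point only.

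On the normal diet, 5 of the 7 genes differed between the tissues at an adjusted p under 0.05, 4 of them higher in liver. The tissues differed in 65.1% of all 16633 genes tested, and 32.9% were higher in liver. An unadjusted p under 0.05 was found for 6 of the 7 and for 68% of all genes. The kidney libraries also had lower totals than the liver libraries. Over both diets, mitochondrial genes took 23.5% to 41.2% of kidney counts and 2.06% to 29.6% of liver counts. The part of this in the tissue differences was not tested. *Pfkfb1* was 57.0-fold higher in liver (log2 difference 5.83, SE 0.35, adjusted p = 2.1e-09), at 35.1 ± 5.89 CPM (SD, n = 4) beside 0.616 ± 0.257 CPM (SD, n = 3) on the scaling shared by both tissues. *Tkfc* was 6.17-fold higher in liver (adjusted p = 3.7e-06), *Khk* 2.98-fold (adjusted p = 0.000221) and *Tkt* 2.81-fold (adjusted p = 5.3e-05).

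*G6pdx* went the other way. On that scaling it stood at 2.84 ± 1.07 CPM in liver (SD, n = 4) and 7.66 ± 2.81 CPM in kidney (SD, n = 3), a log2 difference of -1.43 (adjusted p = 0.00239). *Gpi1* and *Pgd* did not pass, with log2 differences of 0.50 (adjusted p = 0.0644) and 0.49 (adjusted p = 0.166). Without kidney normal diet library 1, both passed, at 0.80 (adjusted p = 0.00449) and 0.93 (adjusted p = 0.0151). That was the only 1 of 18 alternatives in which either passed. Over these the log2 difference was as low as 0.21 for *Gpi1* and 0.19 for *Pgd*. The adjusted p was as high as 0.442 and 0.590.

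Levels were ordered between genes as CPM per kilobase of exon. That length counts every annotated exon base of a gene and can exceed the length of the transcripts present. The order between genes rests on it. In normal diet liver *Khk* led with 179 ± 47.5 (SD, n = 4), followed by *Tkfc* with 37.2 and *Gckr* with 32.2, whose libraries overlapped. *Gpi1* with 10.6, *Tkt* with 9.82 and *Pfkfb1* with 7.39 each overlapped with the next in that order. *Pgd* with 2.72 and *G6pdx* with 0.788 came last and did not overlap with their neighbours. On high salt *Khk* stood at 222, *Tkfc* at 82.5 and *Gckr* at 34.6, and these 3 no longer overlapped with each other. *Gpi1* was at 20.01 and *Tkt* at 17.3, *Pfkfb1* at 5.62 and *Pgd* at 4.84, each pair overlapping, and *G6pdx* at 1.74.

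In kidney *Khk* also led, with 87.9 CPM per kilobase under the normal diet and 96.0 under high salt. The next on the normal diet were *Gpi1* with 10.9, *Tkfc* with 8.76, *Tkt* with 5.10, *G6pdx* with 3.05 and *Pgd* with 2.82, each overlapping with the next. *Pfkfb1* was lowest, with 0.188 under the normal diet and 0.156 under high salt. *G6pdx*, last in liver, thus overlapped with *Pgd* in kidney on this scale. In CPM, not divided by length, the normal diet kidney means were 9.40 for *G6pdx* and 18.2 for *Pgd*.

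Other genes of these pathways were read from 7 lists, which like the 8 genes were chosen with earlier results of these data known. The contrast between the 8 and the lists is thus not a test. The lists hold 72 genes, of which 64 were tested in liver. Of these 64 genes, 3 were called higher on high salt and none lower, 14 had an unadjusted p under 0.05, a share near the 21.2% of all genes, and the median log2 fold change was -0.030, where the 8 genes had 0.82. *Pklr*, the liver pyruvate kinase that ends glycolysis, rose from 103 ± 8.76 to 484 ± 146 CPM (SD, n = 4 each; log2 fold change 2.23, SE 0.24, adjusted p = 0.00618). *Rpia*, which interconverts the pentose phosphates made by the oxidative branch, rose from 1.595 ± 0.411 to 5.57 ± 0.259 CPM (1.80, SE 0.23, adjusted p = 0.0130). *Me1*, the cytosolic malic enzyme that makes NADPH outside the pentose phosphate pathway, rose from 65.9 ± 25.2 to 319 ± 90.3 CPM (2.28, SE 0.32, adjusted p = 0.0169). In none of these did the diets overlap, and their differences were larger than that of any of the 8. *Pklr* passed in all 19 alternatives. *Rpia* missed the threshold without HS5 (log2 fold change 1.77), without HS6 (1.80) and with both summed (1.79, adjusted p = 0.0638). *Me1* missed it without HS5 (2.15), without HS6 (2.17), with both summed (2.16, adjusted p = 0.0741) and without normal diet library 2 (2.26) or libraries 1 and 2 (1.97).

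No other gene of the 7 lists was called in liver. Of 21 other glycolytic genes tested, *Pklr* alone was called, 11 were positive and the median was 0.015. Of these, 6 had an unadjusted p under 0.05, 4 higher and 2 lower on high salt. Named after their values were seen, they were *Pklr*, *Pfkm* (0.73, adjusted p = 0.0746, no overlap), *Pfkl* (0.44) and *Gapdh* (0.43) on the higher side and *Pgk1* (-0.55) and *Bpgm* (-0.53) on the lower. Of 9 other pentose phosphate genes, *Rpia* alone was called, 3 were positive and the median was -0.19. Of 6 other NADPH-yielding genes, *Me1* alone was called, 2 were positive and the median was -0.13. None of 7 genes of gluconeogenesis and glucose release was called (2 positive, median -0.12), and the smallest p in that list was that of *Slc37a4*, the glucose phosphate transporter, at -0.32 (adjusted p = 0.323). None of 5 other fructose and polyol genes was called (1 positive, median -0.17), with *Akr1b3*, the aldose reductase, at -0.62 (adjusted p = 0.154). None of 4 other genes of the phosphofructokinase activator was called (2 positive, median -0.072), with *Tigar*, a phosphatase of that compound, at -0.25 (adjusted p = 0.505).

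Glycogen genes made the list with the highest median, 0.45 over 12 genes, 9 of them positive. None was called. An unadjusted p under 0.05 was found for 5 of the 12, against 21.2% of all genes, 4 of them higher and 1 lower on high salt. The genes of this list were named after their values were seen. The lower one was *Gyg*, the glycogenin that primes glycogen, at -0.75 (adjusted p = 0.0647) with no overlap of the diets. The 4 higher ones included *Gbe1* at 0.84 (adjusted p = 0.0940), *Pygl* at 0.53 (adjusted p = 0.142, no overlap) and *Gys2* at 0.44 (adjusted p = 0.204).

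**Figure D5:**
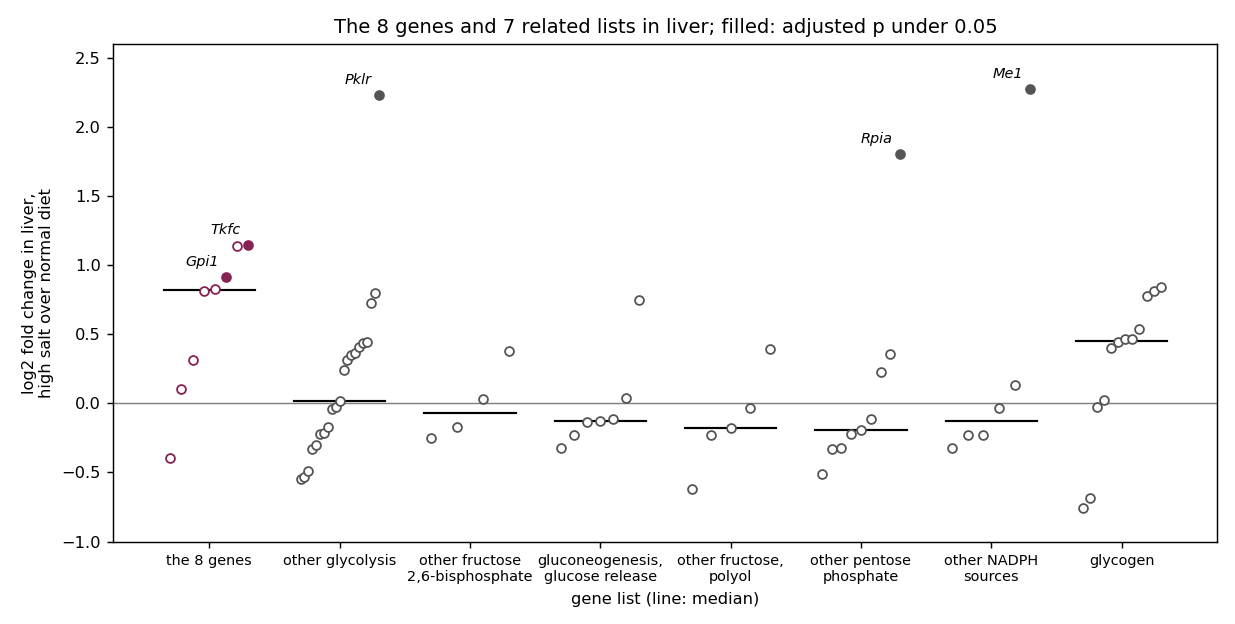
Log2 fold change in liver, high salt over normal diet (y axis), of the 8 genes and of the tested genes of 7 related lists (x axis); points are genes, filled where the adjusted p is under 0.05, and lines are medians. *Pklr*, *Rpia* and *Me1* stand above the other genes of their lists, whose medians lie near 0, and the glycogen list has a median of 0.45.

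In kidney 65 of the 72 genes were tested, none was called, 1 had an unadjusted p under 0.05 and the median log2 fold change was 0.084. That gene was *Ldha*, a subunit of lactate dehydrogenase, with 133 ± 27.9 CPM under the normal diet against 204 ± 12.5 CPM (means ± SD of 3 libraries each; log2 fold change 0.62, SE 0.22, adjusted p = 0.9996). The smallest p-values of the other 6 lists belonged to *Pfkfb2* at -0.58, *Aldh1l1* at 0.54, *Akr1b3* at 0.44, *Slc37a4* at 0.40, *Taldo1* at 0.36 and *Gyg* at -0.20, with an adjusted p of 0.9996 each.

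The genes whose levels followed the mean of the 8 most closely were sought among 12177 liver genes, over 8 libraries that share the diet contrast. The 5 highest Pearson correlations were those of *Gm5182* (0.99), *Rpia* (0.99), *Pou2f1* (0.98), *2310022B05Rik* (0.98) and *Fnip2* (0.97). All of these were also called higher on high salt, with log2 fold changes from 0.87 to 2.25. In kidney, over 6 libraries and 11815 genes, the mean of the 7 was followed most closely by *Tomm40* (0.9988), *Aldoa* (0.998), *Eif4a-ps4* (0.996), *Rars2* (0.995) and *Samm50* (0.995), none of them called for diet. *Rpia* is the only one of the liver genes named here that is in a related list, and *Aldoa*, a glycolytic aldolase, the only one of the kidney genes. These correlations describe libraries that also differ in depth and in the share of mitochondrial counts.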

How the data were processed

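Liver and kidney RNA was sequenced from SMARTer mRNA libraries, per the labels' protocols. Expected counts per gene, as deposited, came from Partek 7.0, STAR 2.5.3a and DESeq2 on mm10, per the submitters' processing notes, which give no roles; 58.2% of liver and 63.8% of kidney values were whole, and every listed gene totalled at least 10. The authors also deposited normalized values, a linear signal per gene whose method is not stated. High salt liver columns match no title and were used as unnumbered replicates.

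Expected counts were rounded and fitted with edgeR 4.0.16 in R 4.3.3 (quasi-likelihood, TMM, filterByExpr), each tissue apart, with diet as the only term, and over all 14 libraries and the 17600 shared genes for the tissue and interaction tests. A gene was called at a Benjamini-Hochberg adjusted p under 0.05. SE is the size of the log2 fold change divided by the root of the test's F. CPM use TMM sizes, with a prior count of 2 in log2 CPM and at least 50 mean counts for the search for alike genes. The fits were also run on simulated counts, drawn independently for each library and thus without a related pair. That run checked the code and does not measure error rates in these data.

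The members and lists were chosen with earlier results of these data known. Of each list, the called genes (at most 4), or otherwise the gene with the smallest p, are named, with the 5 most alike genes. Some results this rule and the design call for are not reported here. Positions are from GENCODE M21 (GRCm38), whose gene starts equal those of the files for 99.4% of matched liver genes, and copies were sought with BLAST 2.17.0. Alternatives tried were upper quartile and RLE scaling, DESeq2 1.42.0, limma 3.58.1 on the normalized values (pseudocounts 1 and 0.1), other filters, no mitochondrial genes, a shared fit, the replicate block in kidney, HS5 and HS6 summed, and leaving out libraries.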

Additional observations from a re-analysis of the deposited data

Results flagged for a closer look

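One library stood apart from the other 3 of its diet in 2 of the 28 liver groups checked, where chance gives about 1.4. *Slc37a4* had 307.8 CPM in normal diet library 2, and the nearest library of that diet had 214 CPM and the lowest 205 CPM. *Akr1b3* had 5.89 CPM in normal diet library 4, and the nearest had 4.21 CPM and the lowest 4.03 CPM. Neither gene was called for diet, and none of the 8 genes met this criterion.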

How the results depend on the processing

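In liver, 2 of the 8 genes and 152 genes in all were called. DESeq2 called 5 and 1084. All 14 libraries in 1 fit called 2 and 260. Summing HS5 and HS6 called 0 and 12, and leaving out normal diet libraries 1 and 2 together called 0 and 52. Leaving out 1 library gave 0 to 3 of the 8 and 12 to 765 genes, with 0 of the 8 without normal diet 1 or 2, HS5, HS6 or HS8. Scaling, pseudocount and filter alternatives called 2 or 3 of the 8. In kidney 0 of the 7 were called under all 16 alternatives, and DESeq2 called 13 genes in all. The kidney replicate block called 0 of the 7 and 0 genes, with 459 at an unadjusted p under 0.05. In their deviations from the group means, same-numbered kidney libraries correlated at 0.41, 0.37 and -0.090. Not every library correlated best with its own number. The deviations within a group depend on each other, so this check cannot tell whether the numbers mark pairs. Liver high salt columns carry no such number.

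Signs turned as follows, and the cause was not tested. *Gckr* in liver was -0.043 without HS7, from 0.10 (range over left-out libraries -0.043 to 0.19). *Tigar* was 0.11 without normal diet 1 and 2. Kidney *Khk* was -0.014 without normal diet 1 and -0.036 without high salt 2 (range -0.036 to 0.35), and kidney *Pfkfb1* was 0.051 without high salt 1 (range -0.60 to 0.051). The interaction of *Pfkfb1* was 0.016 without HS8, 0.23 without kidney normal diet 1, 0.21 without kidney high salt 2 and 0.0039 without kidney high salt 3 (range -0.43 to 0.23). That of *Pgd* was -0.15 without kidney normal diet 1 (range -0.15 to 0.60), and that of *Khk* was -0.035 without kidney high salt 1 (range -0.035 to 0.36).

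Liver had a common biological coefficient of variation of 0.314 and kidney one of 0.3. These values are common to all genes tested. The spread of each of the genes followed here was not compared with counting noise.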
